A study of Homo sapiens with 8 samples.

Results

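The transcripts of 9 DNA repair genes were followed in 2 pancreatic ductal adenocarcinoma cell lines after silencing of the homeobox gene HOXB7: XRCC5, XRCC6, PRKDC, LIG4, PARP1, BRCA1, BRCA2, PALB2 and ATM. They were chosen by name, because HOXB7 protein is reported to act with Ku and DNA-PK and because Capan-1 carries a BRCA2 mutation, and every gene probe annotated with 1 of these names was taken. This gave 12 of the 34127 gene probes on the array, or 9 of 27249 genes. Of these genes, 6 have 1 probe and PRKDC, PARP1 and ATM have 2.

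RNA was hybridised to 8 one-color Agilent arrays, 2 in each of 4 groups. MIA PaCa-2, from a primary pancreatic tumor and grown in RPMI medium, and Capan-1, from a hepatic metastasis and grown in IMDM with more serum, were each measured as parental cells and as cells at 48 h after transfection with a HOXB7 Dicer-substrate siRNA at 10 nM with a cationic lipid. No array holds cells given the scrambled siRNA, so silencing and transfection cannot be told apart. For transfection, the paper states that cells were plated in RPMI the day before. It does not say whether parental Capan-1 cells were moved to RPMI too, so in that line a change of medium cannot be told apart from silencing. Each cell line had its own slide, with the siRNA arrays at the first positions of it, so line and slide, and treatment and position, cannot be told apart either. The labels do not say that the 2 arrays of a group come from separate cultures, so p-values measure only the spread between these arrays. For each probe, the main fit shares that spread over all 4 groups. With 2 arrays against 2 an exact permutation test could not go below 0.33.

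Double-strand breaks are mended mainly by end joining and by homologous recombination. In end joining, the Ku heterodimer (XRCC6 is Ku70, XRCC5 is Ku80) caps the broken end and recruits the catalytic subunit of DNA-PK, encoded by PRKDC, and DNA ligase IV, encoded by LIG4, seals it. In homologous recombination, BRCA1 acts upstream of PALB2, which links it to BRCA2. ATM is the kinase that signals the break, and PARP1 is the first sensor of single-strand breaks and the enzyme inhibited in the treatment of BRCA-mutated tumors, pancreatic ones among them.

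The probes of ATM and PARP1 are shown because the 2 probes of each gene gave siRNA differences of unequal size. All are 60 bases long and are written 5′ to 3′ in the sense of the transcript, with positions on build hg18 from the deposited annotation. Both ATM probes lie on the plus strand of chromosome 11, the upstream one at chr11:107605152-107605211 and the downstream one, 136143 bases further along the gene, at chr11:107741295-107741354. Both PARP1 probes lie on the minus strand of chromosome 1, at chr1:224656568-224656627 and, 40784 bases further downstream, at chr1:224615784-224615843. The downstream PARP1 probe closes with TAA, in capitals, a stop triplet in a frame that is open over the rest of the probe.
ATM upstream: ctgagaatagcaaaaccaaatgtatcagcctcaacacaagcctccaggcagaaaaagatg
ATM downstream: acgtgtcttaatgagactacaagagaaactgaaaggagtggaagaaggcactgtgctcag
PARP1 upstream: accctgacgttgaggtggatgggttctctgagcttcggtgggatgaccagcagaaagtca
PARP1 downstream: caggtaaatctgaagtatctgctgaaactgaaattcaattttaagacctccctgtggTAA
The annotation lists 1 RefSeq transcript for the upstream ATM probe and 2 for the downstream one, and 1 for each PARP1 probe. The other probes lie on chromosomes 2 (XRCC5), 22 (XRCC6), 8 (PRKDC), 13 (LIG4 and BRCA2), 17 (BRCA1) and 16 (PALB2). The PRKDC probes are 184 bases apart. The LIG4 probe is the poorest of the 12 in G and C, with 18.3% against 35.0% or more in the others.

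Levels are the log2 of the background-subtracted intensity minus the 75th percentile of the array, so 0 is the level that 75% of the gene probes stay under. For the 12 probes, a level is compared between arrays for 1 probe and never between probes. The marker sums below do add probes of different genes and mostly follow the brightest of them. The scanner software called 69.2% to 74.3% of the spots of an array well above background. Of the 12 probes, 11 were well above background on all 8 arrays and the LIG4 probe only on the Capan-1 siRNA arrays. Of the 312 spots of these probes, 11 had an outlier flag and were left out, and 0 were saturated. HOXB7, the siRNA target, read -4.82 and -4.09 in parental MIA PaCa-2 and was not well above background on either siRNA array, which makes it at least 2.85-fold lower there. The limma difference, from the measured values, was -3.32 ± 0.26 (SE; limma adjusted p = 0.0173). In Capan-1 HOXB7 read -2.48 and -2.34 in parental and -5.26 and -4.80 in siRNA-treated cells. The log2 difference was -2.62 ± 0.26 (SE, limma adjusted p = 0.121). Among the alternatives, normexp background correction adds an offset of 50 to each intensity, which draws log2 differences of dim probes toward 0. HOXB7 intensities before scaling were 11.6 and 15.4 in parental MIA PaCa-2. The HOXB7 call in MIA PaCa-2 was lost with normexp background correction (-0.10, limma adjusted p = 0.599), with the replicate block (adjusted p = 0.169), with that line fitted alone (adjusted p = 0.111), without the filter on dim probes (adjusted p = 0.0515), and without the first siRNA array of that line (adjusted p = 0.0504) or any of the 4 Capan-1 arrays (adjusted p from 0.0582 to 0.0819). In Capan-1 HOXB7 passed with normexp (-0.66, limma adjusted p = 0.0353), without scaling between arrays (-2.77, adjusted p = 0.0181), with spike-in scaling (-2.83, adjusted p = 0.0143), with an intensity trend (adjusted p = 0.0302) and without the second siRNA array (-2.84, adjusted p = 0.045).

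Epithelial identity was checked with 5 markers. The keratins KRT8, KRT18 and KRT19 were well above background on all 8 arrays, whereas EPCAM and CDH1 were so in Capan-1 and not well above background on any of the 4 MIA PaCa-2 arrays. Summed over the 5 markers, the level relative to the 75th percentile was 329 to 359 in parental and 323 to 324 in siRNA-treated MIA PaCa-2, against 899 to 937 and 978 to 982 in Capan-1. Fibroblast markers summed to 14.0 to 15.7 on the MIA PaCa-2 arrays, most of it COL1A2, and to 0.111 to 0.147 on the Capan-1 arrays. Acinar markers summed to 0.442 to 0.462 on the MIA PaCa-2 arrays, and in Capan-1 to 7.40 to 7.69 in parental and 11.3 to 12.3 in siRNA-treated cells without overlap, most of it PRSS1, whose mean level was 2.86 and 3.53 on the log2 scale. Leukocyte markers summed to 3.14 to 4.09 in MIA PaCa-2, most of it CD14, against 0.673 to 0.823 for the other line, and endothelial markers to 0.297 to 0.428 over all arrays. None of the marker genes tested passed the limma threshold after siRNA in either line, while the epithelial markers differed between the parental lines in 5 of 5 genes, all lower in MIA PaCa-2. The part of these markers in the differences between the lines and after siRNA below was not tested.

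Between the parental lines, 7 of the 11 probes tested, of 6 genes, differed at a limma adjusted p under 0.05, which is 63.6% of them beside 70.2% of the 24965 probes tested on the whole array. XRCC6, PARP1, BRCA2 and ATM were higher in MIA PaCa-2 (5 probes, beside 39.2% of all probes), and BRCA1 and PALB2 were lower there (2 probes, beside 31%). After HOXB7 siRNA, 1 of the 11 probes tested passed in MIA PaCa-2, the upstream ATM probe, beside 1.92% of 23715 probes, and in Capan-1 limma called 0 of the 12 beside 0.00428% of 23376. At an unadjusted limma p under 0.05 there was 1 of the 11 probes in MIA PaCa-2, beside 20.5% of all probes. In Capan-1 there were 4 of the 12 (LIG4, BRCA1, PALB2 and the upstream PARP1 probe), beside 12.4%. LIG4 was tested there only because it was well above background on the siRNA arrays, the group where it is higher. Its place in this count is therefore no support. For the difference between the siRNA effects of both lines, limma called 0 of 12 probes beside 0.00783%, with 2 at an unadjusted p under 0.05 (beside 11.1%). For the effect averaged over both lines it called 0 of 12 beside 2%, with 4 at an unadjusted p under 0.05, LIG4 again among them (beside 21.9%). The share called between the lines was thus near that of the array, and the siRNA comparisons turn on single probes.

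**Figure D1:**
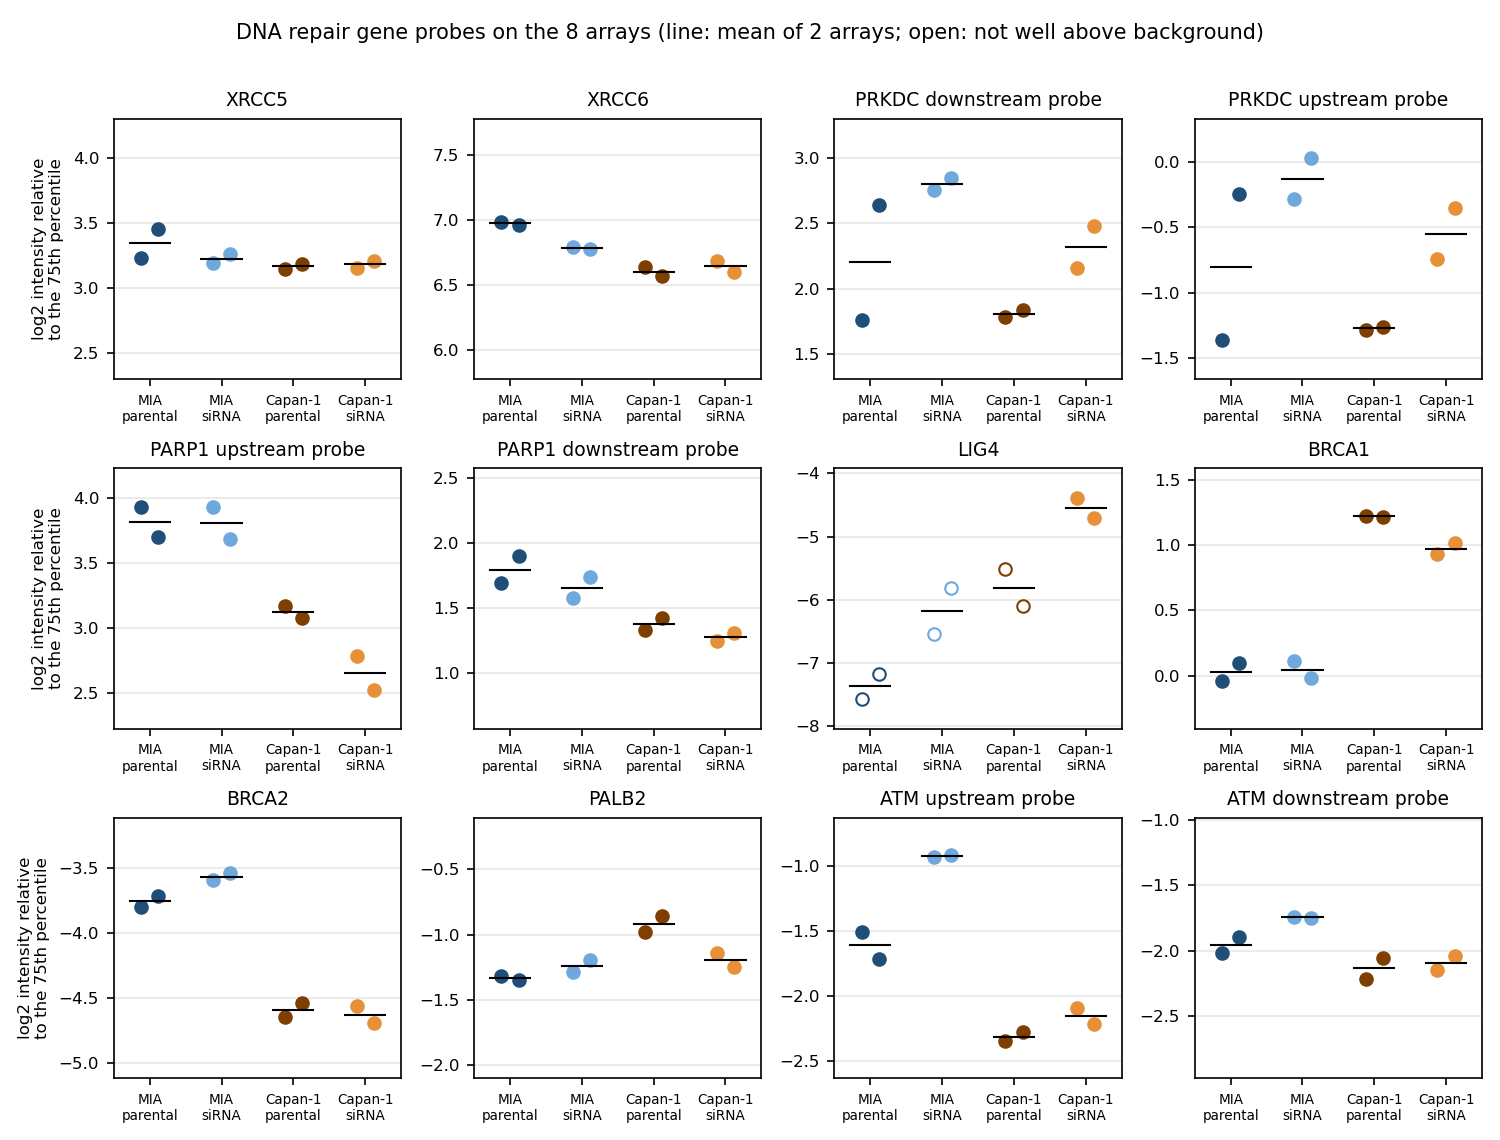
Level of each of the 12 probes (log2 intensity relative to the 75th percentile of the array) on the 8 arrays in 4 groups; each point is 1 array, each line the mean of 2 arrays, and open points were not well above background. The upstream ATM probe is among the 6 of 11 tested that separate siRNA-treated from parental MIA PaCa-2, beside 51.4% of all probes tested. The first parental MIA PaCa-2 array lies low for both PRKDC probes, and BRCA1 and BRCA2 separate the cell lines in opposite directions.

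The Ku subunits varied little across the 4 groups. XRCC5 ranged from 3.15 to 3.45 over the 8 arrays, and its siRNA difference was -0.12 in MIA PaCa-2 (95% interval -0.37 to 0.13, limma adjusted p = 0.552) and 0.02 in Capan-1 (-0.23 to 0.26, adjusted p = 0.972). For XRCC6, parental MIA PaCa-2 read 6.99 and 6.96, siRNA-treated MIA PaCa-2 6.79 and 6.78, parental Capan-1 6.64 and 6.57, and siRNA-treated Capan-1 6.69 and 6.60. Both siRNA arrays of MIA PaCa-2 thus lay below both parental arrays, and those of Capan-1 overlapped with theirs. The XRCC6 difference in MIA PaCa-2 was -0.19 ± 0.08 (SE; 95% interval -0.38 to 0.00, limma adjusted p = 0.250). In parental cells XRCC6 was 1.29-fold higher in MIA PaCa-2 than in Capan-1 (log2 0.37 ± 0.08, limma adjusted p = 0.00633). The XRCC6 call was lost with quantile normalization (0.03, limma adjusted p = 0.793), without scaling between arrays (0.40, adjusted p = 0.0898), with spike-in scaling (0.28, adjusted p = 0.271) and with the replicate block (adjusted p = 0.0589). XRCC5 differed by 0.18 between the lines (-0.07 to 0.42, limma adjusted p = 0.160), with both MIA PaCa-2 parental arrays above both of Capan-1, and without the first parental MIA PaCa-2 array XRCC5 passed at 0.29 (adjusted p = 0.0448).

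PRKDC had the widest spread between replicates of the probes on all arrays. The downstream probe read 1.76 and 2.64 in parental and 2.76 and 2.85 in siRNA-treated MIA PaCa-2, and 1.78 and 1.83 in parental and 2.16 and 2.48 in siRNA-treated Capan-1. The upstream probe read -1.36 and -0.25, then -0.28 and 0.03 in MIA PaCa-2, and -1.28 and -1.26, then -0.74 and -0.35 in Capan-1, in the same order. Both probes thus placed the first parental MIA PaCa-2 array about as low as parental Capan-1, and over the 8 arrays they correlated at a Pearson r of 0.988 (a description, since the probes share libraries). The siRNA-treated arrays lay above both parental arrays in Capan-1 with both probes and in MIA PaCa-2 with the downstream probe.

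The siRNA difference of PRKDC was 0.61 and 0.68 in MIA PaCa-2 (downstream and upstream probe, limma adjusted p = 0.295 and 0.352) and 0.51 and 0.72 in Capan-1 (limma adjusted p = 0.498 and 0.464). The 95% intervals reached from -0.09 to 1.30 for the downstream probe in MIA PaCa-2 and from -0.18 to 1.21 in Capan-1. As the spread is shared by all groups, the Capan-1 intervals also carry that of parental MIA PaCa-2. The SD there was 0.62 (downstream) and 0.79 (upstream), against 0.04 and 0.02 in parental Capan-1. In MIA PaCa-2 the size rests on 1 library: without the first parental array the PRKDC differences were 0.16 and 0.12, and without the second they were 1.05 and 1.24. That first array had the highest 75th percentile of the 8 (8.36 on the log2 scale), whose part in its low PRKDC level was not tested. Averaged over both lines, the PRKDC differences were 0.56 and 0.70 (limma adjusted p = 0.186 and 0.191). Between the parental lines they were 0.39 and 0.47 (limma adjusted p = 0.255 and 0.285), and without the first parental MIA PaCa-2 array 0.84 and 1.03 (adjusted p = 0.00778 and 0.0112), whereas without the second the sign turned, to -0.05 and -0.09.

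LIG4 was at the edge of detection. Its probe read -7.56 and -7.17 in parental and -6.54 and -5.81 in siRNA-treated MIA PaCa-2, all 4 not well above background, so LIG4 was not tested there or between the parental lines. In Capan-1 it read -5.51 and -6.10 in parental cells, not well above background, and -4.39 and -4.70 in siRNA-treated cells, above it on both arrays. By the measured means (-5.80 and -4.55), LIG4 was 2.39-fold higher after siRNA in Capan-1, with a limma adjusted p of 0.279 and an unadjusted p of 0.0072. The limma interval of this log2 difference was wide, from 0.49 to 2.03. With normexp background correction, whose offset of 50 is above the LIG4 intensities, the difference was 0.26 on the log2 scale in place of 1.26 (limma adjusted p = 0.383).

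PARP1 separated the cell lines with both probes. The upstream probe read 3.93 and 3.70 in parental and 3.93 and 3.68 in siRNA-treated MIA PaCa-2, against 3.17 and 3.07 in parental and 2.79 and 2.52 in siRNA-treated Capan-1. The downstream probe read 1.69 and 1.90, 1.57 and 1.74, 1.33 and 1.43, and 1.25 and 1.31 in the same order of groups. Every MIA PaCa-2 array lay above every Capan-1 array with either probe. In parental cells PARP1 was higher in MIA PaCa-2 by 0.69 ± 0.15 with the upstream probe (1.62-fold, limma adjusted p = 0.00625) and by 0.42 ± 0.11 with the downstream one (1.33-fold, adjusted p = 0.0156). The call of the downstream PARP1 probe was lost without the second parental MIA PaCa-2 array (0.31, limma adjusted p = 0.0696), without the first parental Capan-1 array (0.37, adjusted p = 0.0857), without scaling between arrays (adjusted p = 0.0733), with spike-in scaling (adjusted p = 0.239) and with the replicate block (adjusted p = 0.0524).

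After siRNA the PARP1 probes gave -0.01 and -0.14 in MIA PaCa-2 (limma adjusted p = 0.986 and 0.530), with 95% intervals of -0.37 to 0.35 and -0.41 to 0.13. In Capan-1 the upstream probe gave -0.47 ± 0.15 (95% interval -0.83 to -0.11, limma adjusted p = 0.334) and the downstream probe -0.10 (-0.37 to 0.17, adjusted p = 0.741). Both siRNA arrays of Capan-1 lay below both parental arrays with each probe. The PARP1 difference from the upstream probe passed under 1 alternative, normexp background correction (limma adjusted p = 0.0472). The siRNA effects of the lines differed by 0.46 with the upstream PARP1 probe (-0.05 to 0.97, limma adjusted p = 0.489).

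BRCA1 and BRCA2 ran in opposite directions between the cell lines. BRCA1, read from 10 spots per array, stood at -0.05 and 0.10 in parental and 0.11 and -0.02 in siRNA-treated MIA PaCa-2, against 1.23 and 1.22 in parental and 0.93 and 1.02 in siRNA-treated Capan-1. It was 2.29-fold lower in parental MIA PaCa-2 than in parental Capan-1 (log2 -1.20 ± 0.09, limma adjusted p = 8.05e-05), and under the 19 alternatives BRCA1 kept an adjusted p of at most 0.00413. BRCA2, also on 10 spots, stood at -3.80 and -3.71 in parental and -3.60 and -3.54 in siRNA-treated MIA PaCa-2, against -4.64 and -4.54 and then -4.56 and -4.69 in Capan-1. BRCA2 was 1.78-fold higher in parental MIA PaCa-2 (log2 0.83 ± 0.09, limma adjusted p = 0.000351). The BRCA2 probe is dim, with intensities before scaling of 23.5 and 20.0 in parental MIA PaCa-2 and 10.6 and 13.4 in parental Capan-1. With normexp background correction, whose offset of 50 is above these intensities, the BRCA2 difference was 0.21 (limma adjusted p = 0.0809). The arrays measure the amount of BRCA2 transcript bound by 1 probe and not its sequence, so they do not show the mutation of Capan-1.

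The replicate spots show how little of these differences lies within an array. The highest BRCA1 spot on the parental MIA PaCa-2 arrays was 0.20 and the lowest on the parental Capan-1 arrays 1.13. For BRCA2 the lowest parental MIA PaCa-2 spot was -3.95 and the highest parental Capan-1 spot -4.39. The SD over the spots of an array was 0.06 to 0.14 for BRCA1, 0.09 to 0.24 for BRCA2 and 0.08 to 0.12 for the downstream ATM probe. Spots of 1 array share their RNA and are not replicates of a condition.

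**Figure D2:**
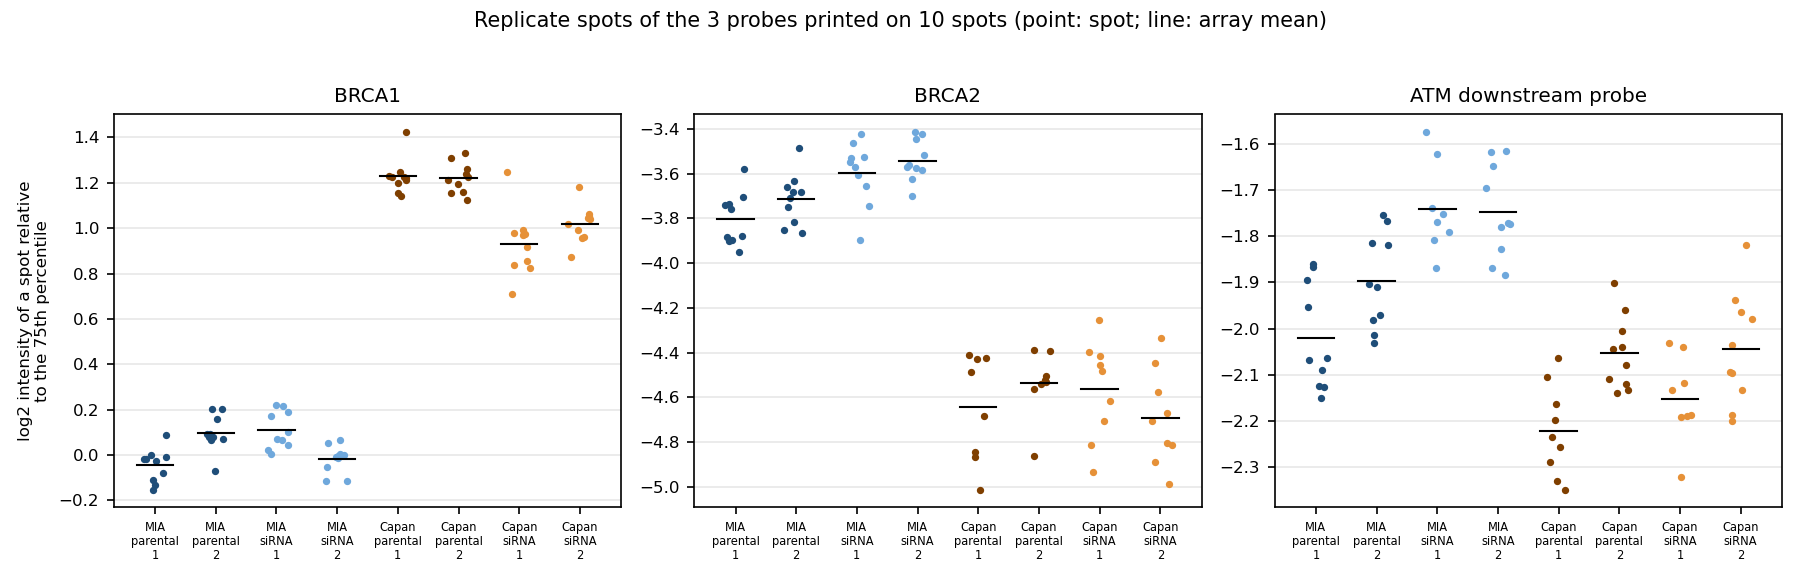
Replicate spots of the BRCA1, BRCA2 and downstream ATM probes on each array (log2 intensity of a spot relative to the 75th percentile of the array), without spots that had an outlier flag; each point is 1 spot and each line the mean of an array. No BRCA1 or BRCA2 spot of a MIA PaCa-2 array falls among those of Capan-1, whereas the ATM spots of siRNA-treated and parental MIA PaCa-2 overlap.

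PALB2 followed BRCA1 between the lines. It read -1.32 and -1.35 in parental and -1.29 and -1.20 in siRNA-treated MIA PaCa-2, against -0.98 and -0.86 in parental and -1.14 and -1.25 in siRNA-treated Capan-1. Parental MIA PaCa-2 was thus the lower one, by 1.33-fold (log2 -0.42 ± 0.09, limma adjusted p = 0.00666). The PALB2 call was lost without scaling between arrays (limma adjusted p = 0.134) and with spike-in scaling (adjusted p = 0.0716), at -0.38 and -0.51, and with the replicate block (adjusted p = 0.0546).

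After siRNA neither BRCA gene nor PALB2 passed the test. In MIA PaCa-2 the differences were 0.02 for BRCA1 (95% interval -0.21 to 0.25), 0.19 for BRCA2 (-0.04 to 0.41) and 0.09 for PALB2 (-0.13 to 0.31), with limma adjusted p of 0.939, 0.312 and 0.621. Without scaling between arrays, BRCA1, BRCA2 and PALB2 all turned to values below 0 in MIA PaCa-2 (-0.20, -0.03 and -0.13), where the median of all probes moved from 0.02 to -0.19. In Capan-1 the siRNA arrays lay below both parental arrays for BRCA1, by -0.25 ± 0.09 (limma adjusted p = 0.381), and for PALB2, by -0.28 ± 0.09 (adjusted p = 0.343), and overlapped with them for BRCA2, at -0.04 (-0.26 to 0.19, adjusted p = 0.908). For PALB2 the siRNA effects of both lines differed by 0.37 (0.06 to 0.68), at an unadjusted limma p of 0.0277 and an adjusted p of 0.381.

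ATM was the gene called after HOXB7 siRNA. The upstream probe read -1.51 and -1.71 in parental and -0.93 and -0.92 in siRNA-treated MIA PaCa-2, and -2.35 and -2.28 in parental and -2.09 and -2.21 in siRNA-treated Capan-1. It was the only 1 of the 12 probes past the limma threshold in MIA PaCa-2, higher by 0.69 ± 0.10 (SE; 95% interval 0.44 to 0.94, 1.61-fold, limma adjusted p = 0.0408). In bulk RNA, a change in the share of cells that express ATM and one in the RNA per cell cannot be told apart. The call was lost with any 1 of the 8 arrays left out (limma adjusted p from 0.0672 to 0.138, log2 difference from 0.59 to 0.79). It passed under 6 of 19 alternatives, among them the second set of deposited log2 values, which repeats the main fit and is no support. Over the 19 the difference stayed between 0.40 and 0.79 and the limma adjusted p ran from 0.0185 to 0.393.

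The downstream ATM probe gave a smaller difference. It read -2.02 and -1.90 in parental and -1.74 and -1.75 in siRNA-treated MIA PaCa-2, and -2.22 and -2.05 and then -2.15 and -2.05 in Capan-1. Both siRNA arrays of MIA PaCa-2 were above both parental arrays, by 0.21 ± 0.10 (95% interval -0.03 to 0.46, limma adjusted p = 0.291), and without scaling between arrays this ATM difference was -0.0023. In Capan-1 the ATM probes gave 0.16 (-0.09 to 0.41, limma adjusted p = 0.553) and 0.04 (-0.20 to 0.28, adjusted p = 0.910). The siRNA effects of the lines differed by 0.53 ± 0.14 with the upstream probe (0.18 to 0.88, limma adjusted p = 0.299), so that a difference between lines in the ATM response was not called. Averaged over both lines the upstream probe gave 0.42 (limma adjusted p = 0.0505).

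The ATM probes also parted between the parental lines. The upstream probe was 1.63-fold higher in MIA PaCa-2 (log2 0.70 ± 0.10, limma adjusted p = 0.00118) and passed under the 19 alternatives with an adjusted p of at most 0.0372. The downstream ATM probe differed by 0.18 (-0.06 to 0.42, limma adjusted p = 0.152). Of the other genes, PARP1 too kept its call between the parental lines under the 19 alternatives with its upstream probe (limma adjusted p at most 0.0401).

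**Figure D3:**
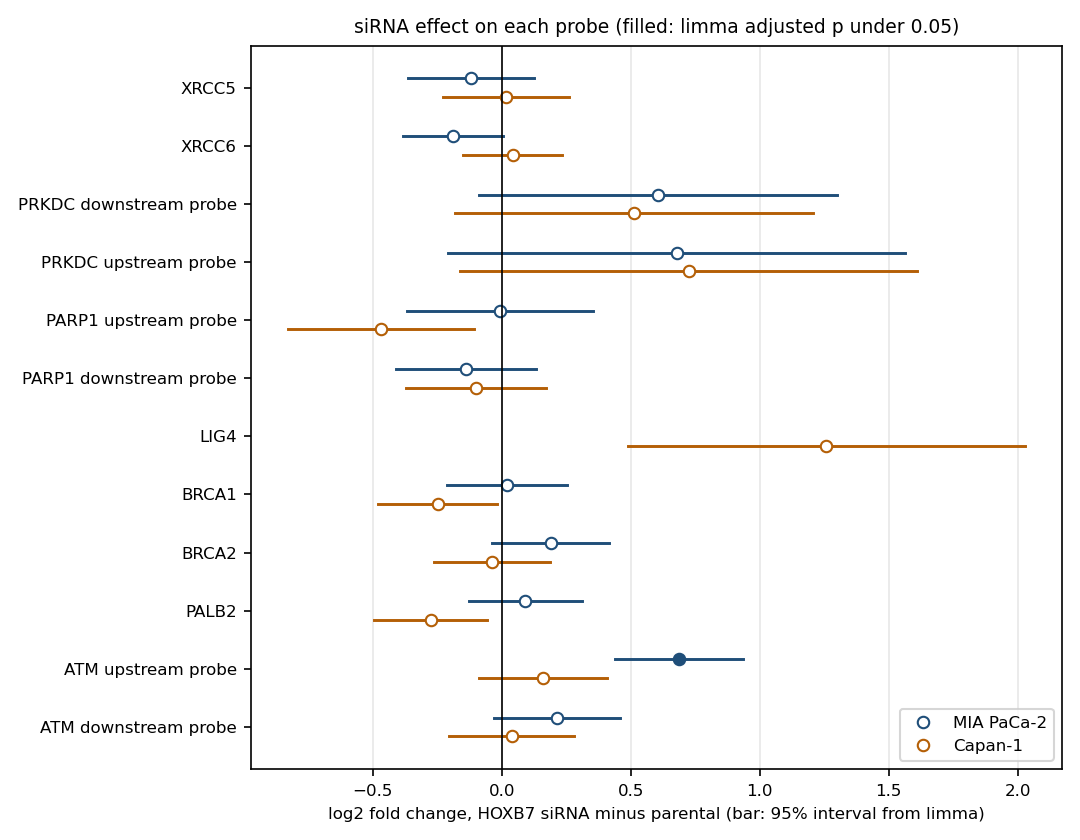
HOXB7 siRNA effect on each probe (log2 fold change, siRNA minus parental) in MIA PaCa-2 and Capan-1; points are limma estimates from 2 against 2 arrays and bars their 95% intervals from a spread shared by all groups, filled points have an adjusted p under 0.05, and LIG4 in MIA PaCa-2 was not tested and is not drawn. The upstream ATM probe in MIA PaCa-2, at 0.69, is the only filled point, and the PRKDC intervals are the widest beside that of LIG4.

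Counted by overlap of the arrays, 6 of the 11 probes tested in MIA PaCa-2 had both siRNA arrays on 1 side of both parental arrays, beside 51.4% of all probes tested. Of these, 5 were higher (both ATM probes, the downstream PRKDC probe, BRCA2 and PALB2, beside 28% of all probes) and 1 lower (XRCC6, beside 23.4%). In Capan-1 it was 8 of 12, beside 54.3%, with 4 higher (both PRKDC probes, LIG4 and the upstream ATM probe, beside 27.1%) and 4 lower (both PARP1 probes, BRCA1 and PALB2, beside 27.1%). LIG4 was admitted to this count only by the siRNA arrays on which it is higher. Between the parental lines 9 of 11 probes did not overlap, beside 86.5%.

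The study called a gene by an interval that holds 99% of the log2 ratios between parental arrays at like intensity, and asked further that the probes of a gene be several, mostly detected and alike in direction. Here only the interval was rebuilt, probe by probe, with a window of 1000 probes and both duplicates outside on the same side, so these are not the gene calls of the study. It called 0 of the 11 probes in MIA PaCa-2 (beside 0.524% of all probes) and 1 of the 12 in Capan-1 (beside 1.86%), the upstream PRKDC probe, with ratios of 0.54 and 0.91 against limits of 0.36 and 0.38. The downstream PRKDC probe missed with 1 duplicate in Capan-1, at 0.38 against a limit of 0.40, and passed with the other, at 0.65 against 0.42. The upstream ATM probe in MIA PaCa-2 had ratios of 0.58, inside its limit of 0.88, and 0.79, outside its limit of 0.77. The interval and limma thus picked different probes: PRKDC in Capan-1 by the first, ATM in MIA PaCa-2 by the second.

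**Figure D4:**
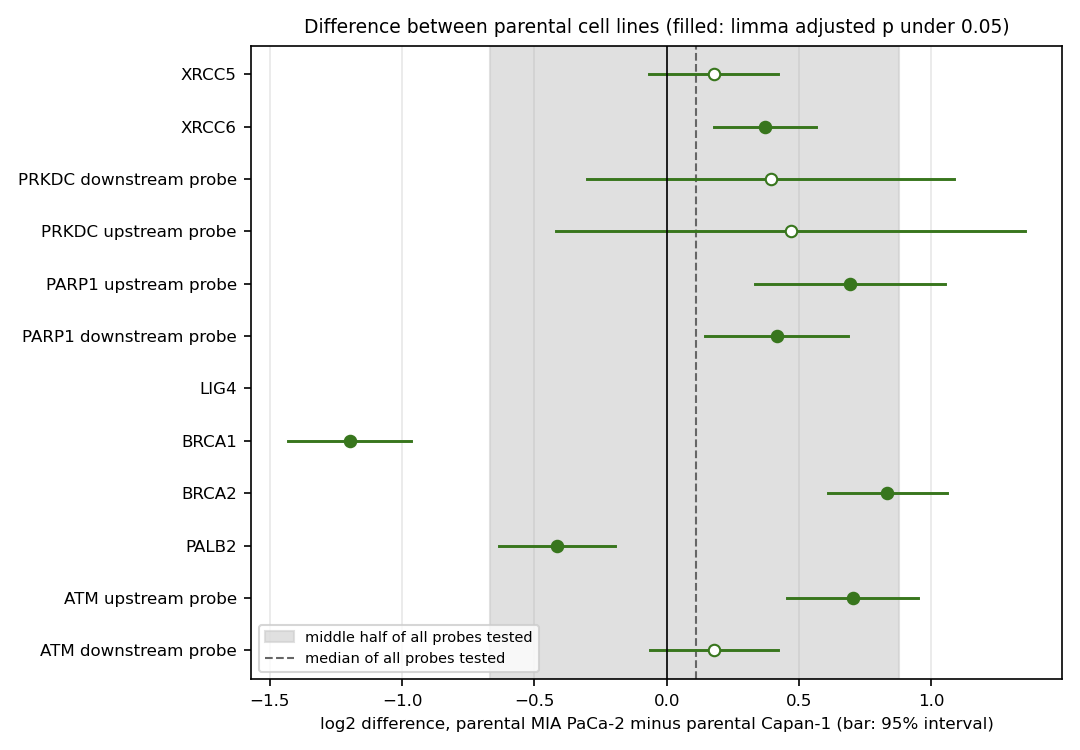
Difference between the parental cell lines for each probe (log2, MIA PaCa-2 minus Capan-1); points are limma estimates, bars their 95% intervals, filled points have an adjusted p under 0.05, the grey band spans the middle 50% of all probes tested (-0.67 to 0.88) and the dashed line is their median (0.11), while LIG4 was not tested. BRCA1, at -1.20, is the one probe of these genes outside the band, and BRCA2, at 0.83, lies just inside it.

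The wider pathways were read from lists of repair genes. In end joining, 11 of 13 listed genes were tested in MIA PaCa-2 and 12 of them in the other line, and limma called none after siRNA in either, with medians of 0.01 and 0.02 beside 0.02 and 0.00 over all genes. At the parental level 4 genes of end joining were higher and 3 lower in MIA PaCa-2, 63.6% of those tested beside 71.9% of all genes. XRCC4, the partner of ligase IV, had the largest difference of the list, 2.61 higher (limma adjusted p = 5.86e-05), and POLM, a gap-filling polymerase, stood at -1.32 against Capan-1 (adjusted p = 2.55e-05). Of the 7 factors of the 53BP1 pathway, which shield ends from resection, 6 were tested, none was called after siRNA, and between the parental lines 2 were higher and 2 lower (66.7% beside 71.9%). Among them MAD2L2 was 1.24 higher in MIA PaCa-2 (limma adjusted p = 4.53e-05), while SHLD1 differed by -0.79, read from the dimmest of its 3 probes (adjusted p = 0.0137).

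In homologous recombination, limma called 1 of 30 genes after siRNA in MIA PaCa-2 (3.33% beside 2.30% of all genes). For Capan-1 it called 0 (beside 0.00529% of all genes). The medians were 0.03 and -0.03. The gene called was XRCC2, which acts in strand exchange. It read -0.98 and -1.21 in parental and -0.11 and -0.35 in siRNA-treated MIA PaCa-2, a rise of 0.87 ± 0.14 (limma adjusted p = 0.0445), and -1.75 and -1.65 in parental and -2.01 and -2.20 in siRNA-treated Capan-1, a difference of -0.41 (adjusted p = 0.349). The XRCC2 effects of both lines differed by 1.27 (limma adjusted p = 0.143). Like ATM, XRCC2 passed in MIA PaCa-2 under 6 of 19 alternatives. Between the parental lines 14 genes of the list were higher and 8 lower in MIA PaCa-2, 73.3% of the 30 beside 71.9% of all genes, led by RAD50, a subunit of the end-resecting MRN complex (2.38, limma adjusted p = 4.5e-06), and ABRAXAS1, a scaffold of the BRCA1-A complex (2.17, adjusted p = 1.03e-05).

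The Fanconi anemia genes, which unhook crosslinks, had medians of -0.07 and 0.00 after siRNA, with none of 16 called by limma in either line. Averaged over both lines 1 of them was called (6.25% beside 2.40% of all genes). It was FANCC, a subunit of the core complex, which fell by 0.40 on the log2 scale (limma adjusted p = 0.0402). The parental lines differed in 9 of the 16, 5 higher and 4 lower in MIA PaCa-2 (56.2% beside the 71.9% of all genes), led by FANCB (1.64) and FANCI (-1.30). Of 18 damage signaling genes, limma called only ATM after siRNA, in MIA PaCa-2 alone (5.56% beside 2.30% of all genes). Averaged over both lines CDC25A, a phosphatase that opens the cell cycle checkpoints, rose by 0.48 (limma adjusted p = 0.0457). It was the only gene of this list called in the average (5.56% beside 2.40% of all genes). The parental lines differed in 12 of the 18 (66.7% beside 71.9%), 7 higher and 5 lower in MIA PaCa-2, led by CHEK2, a kinase that ATM activates (2.30, limma adjusted p = 4.37e-06), and CDC25A (-1.68). FANCC and CDC25A passed under 6 and 5 of 18 alternatives.

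The genes of single-strand break and base excision repair, the pathway of PARP1, had the lowest medians of these lists after siRNA in MIA PaCa-2, -0.16 there and -0.12 in Capan-1, with 0 of 20 called by limma in either line. At the parental level 8 were higher and 6 lower in MIA PaCa-2 (70.0% beside 71.9% of all genes), with the flap endonuclease FEN1 (-1.53) and the gap-filling polymerase POLB (-1.45) the furthest apart. In alternative end joining 1 of 6 genes was higher and 2 were lower between the parental lines (50% beside 71.9%), RBBP8, the end-resection factor CtIP, among them (-1.64), and limma called 0 of 6 after siRNA in either line. The lists share genes, PARP1 and FEN1 among them, so their counts are not independent.

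**Figure D5:**
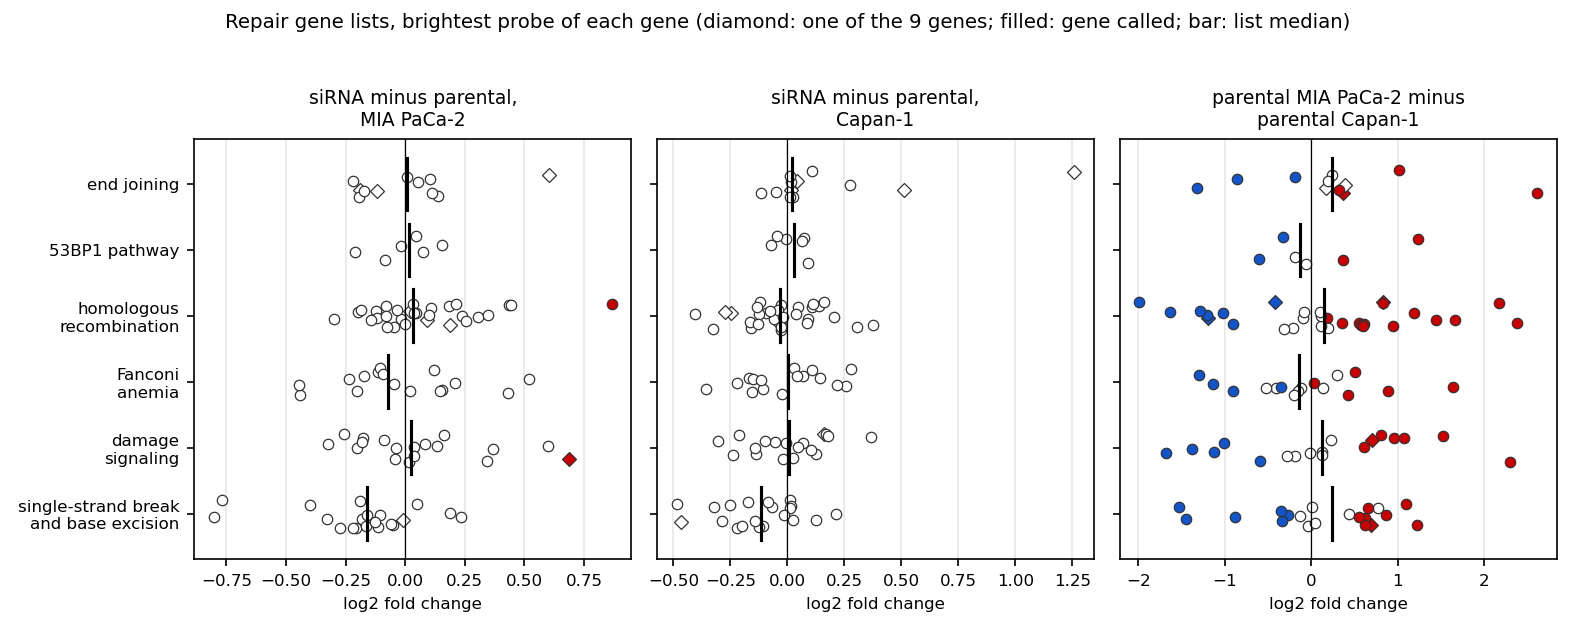
Log2 fold change of the brightest probe of each gene in 6 repair lists, for siRNA minus parental in each cell line and for parental MIA PaCa-2 minus parental Capan-1; each point is 1 gene, diamonds are the 9 genes followed here, bars are list medians, and filled points are genes with at least 1 probe at a limma adjusted p under 0.05, red for higher and blue for lower. XRCC2 and ATM are the filled points after siRNA in MIA PaCa-2, no point is filled in Capan-1, and filled points of both signs spread over each list between the parental lines.

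Other gene lists are given beside the ATM result. Among interferon-stimulated genes, 2 of 9 tested were higher in MIA PaCa-2, IFI27 by 2.09 (limma adjusted p = 0.00563) and IFI6 by 0.82 (adjusted p = 0.0396), beside 2.30% of all genes called in either direction. The median of the list was -0.07 there, so these calls do not mark a rise of the whole list. With Capan-1 the list median was 0.64, although limma called 0 of 10 genes. Averaged over both lines limma called 4 of 10 (IFI27, IFI6, IFIT1 and IFIT3), all higher, beside 2.40% of all genes. For IFIT1 and IFIT3 that average joins differences of unlike sign, -0.15 and -0.07 in MIA PaCa-2 (limma adjusted p = 0.387 and 0.679) against 1.22 and 0.81 in Capan-1 (adjusted p = 0.0938 and 0.121), and the differences between lines were not called (adjusted p = 0.0909 and 0.131). Of 12 p53 targets limma called none in either line alone. Averaged over both lines it called DDB2 (8.33% of the list beside 2.40% of all genes), which fell by 0.36 on the log2 scale (limma adjusted p = 0.0491). In MIA PaCa-2, IFI27 passed under 17 of 19 alternatives and IFI6 under 6. For the averaged effect, IFI27 passed under 15 of 18 alternatives, IFI6 and IFIT1 under 7, and IFIT3 and DDB2 under 6. None of 15 proliferation genes was called in either line, with medians of -0.09 (MIA PaCa-2) and -0.16 (Capan-1). The part of these genes in the ATM difference was not tested.

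For 7 of the genes, the gene with the most similar profile over the 8 arrays was found among about 20290 probes well above background on all of them. It was PLRG1 for XRCC5 (Pearson r = 0.970), ACAD9 for XRCC6 (0.993), LOC100131778 for PARP1 (0.994), WDHD1 for BRCA1 (0.999), ARHGEF12 for BRCA2 (0.998), FGF18 for PALB2 (0.970) and S1PR2 for ATM (0.995). None was sought for LIG4. The BRCA profiles have many neighbors, 94 probes above 0.99 for BRCA1 and 272 for BRCA2, while XRCC5 and PALB2 have 0. Among the genes themselves BRCA1 and BRCA2 stood at -0.962. These are descriptions over 8 arrays that share cell lines and slides.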

How the data were processed

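The authors scanned each array and deposited, per the file headers, the background-subtracted and detrended intensity of every spot from Agilent Feature Extraction 9.5.3, with a flag for outlying spots and a call against background. A second set of deposited log2 values holds the same intensities without scaling between arrays. Here the log2 intensities of unflagged spots were averaged per probe, and the 75th percentile over gene probes of each array was subtracted. Group means of the 8 arrays were fitted with limma 3.58.1 (R 4.3.3; data.table version 1.17.8), and contrasts were called (two-sided) where the p, adjusted by Benjamini-Hochberg over all probes tested, was under 0.05. Testing required 1 of the groups compared to be well above background for the probe on both of its arrays. For HOXB7 in MIA PaCa-2, with siRNA arrays not well above background, the fold is a lower bound against the lowest signal well above background. For LIG4 in Capan-1 the fold is that of the measured means. A listed gene counted as called when at least 1 probe passed in 1 direction and none in the other. Named are the 9 genes with every probe, HOXB7, list genes past the threshold after siRNA, the 2 largest parental differences of each repair list, and the gene most like each of those well above background on all arrays, of which 1 is not reported here. The interval was rebuilt per probe after the methods of the study, without their criteria over the probes of a gene, and its window, scaling and pairing are not given in the sources used here. Same-numbered arrays deviated from their group means with correlations of 0.02 (MIA PaCa-2) and 0.04 (Capan-1), so replicate numbers were not taken as pairs. Probe positions are those of the array annotation (hg18). The genes and lists were chosen with earlier results of these data known. Python 3.11.15, pandas 2.3.3, numpy 2.4.6 and matplotlib 3.10.9 served for tables and figures, and the fit and the interval rule were tested on simulated data. Alternatives changed the background correction, the scaling, the filter, the model and the arrays used, and the number of arrays limits the precision.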

Additional observations from a re-analysis of the deposited data

How the results depend on the processing

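The call of the upstream ATM probe in MIA PaCa-2 was lost, leaving 0 probes, without scaling between arrays, with spike-in scaling, without the filter on dim probes, with MIA PaCa-2 fitted alone, with the replicate number as a block (replicate block, 0 probes), and with each of the 8 arrays left out (0 to 0). In Capan-1, normexp background correction gave 1 probe, PARP1. For the effect averaged over both lines the count was 3 with normexp, 1 with quantile normalization, 2 with an intensity trend, and 1 with the filter asking for all 8 arrays. Between the parental lines it was 4 without scaling, with spike-in scaling and with the replicate block. An interval of 95% called 1 probe in MIA PaCa-2 and 4 of the 12 for the other line. No share over all probes is given here for these alternative settings, so such counts are not a result about the 9 genes. Without scaling the median of all probes moved from 0.02 to -0.19 (MIA PaCa-2) and from 0.00 to -0.16 (Capan-1). The signs of the following differences turned. In MIA PaCa-2, PARP1 turned to 0.0077 with quantile normalization (arrays left out, -0.13 to 0.12), BRCA1 to -0.20 without scaling and -0.18 with spike-in scaling (arrays left out, -0.052 to 0.091), BRCA2 to -0.027 and -0.011, and PALB2 to -0.13 and -0.11. In Capan-1, quantile, no and spike-in scaling gave -0.028, -0.14 and -0.20 for XRCC5 (arrays left out, -0.012 to 0.042) and -0.036, -0.12 and -0.17 for XRCC6 (arrays left out, -0.00074 to 0.084). BRCA2 there turned to 0.12 with normexp and 0.0013 with quantile normalization (arrays left out, -0.10 to 0.026), and ATM to -0.054 with spike-in scaling. The difference between lines in the HOXB7 effect turned to 0.56 with normexp, which adds an offset of 50. With arrays left out, that of PRKDC ran from -0.35 to 0.54, that of LIG4 from -0.44 to 0.29, and the parental difference of PRKDC from -0.048 to 0.84. The cause of these changes was not tested. The other 634 settings of single genes kept their side of the threshold and their direction, 30 lost a call and 9 gained one. Part of the 634 could not change direction, such as the siRNA difference of a line with an array of the other line left out. That count is therefore no measure of robustness. The number of arrays, 2 in a group, limits the precision, and LIG4 was too near background for a test in MIA PaCa-2.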
